A study of Homo sapiens with 267 samples.

Results

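Metallothioneins are small cysteine-rich proteins that bind zinc, copper and cadmium and so buffer the free metal of the cell. Their genes carry metal response elements in the promoter, which are bound by MTF1, a zinc finger transcription factor that senses zinc, and the same factor acts on SLC30A1, which encodes the zinc exporter ZnT1 of the plasma membrane. MT2A is usually the most abundant human metallothionein, and the MT1 genes lie beside it in a cluster on chromosome 16. Described here are 9 of the 63677 gene rows of the count table, chosen by symbol with earlier results of these data known. They are the metallothioneins MT2A, MT1X, MT1E, MT1F, MT1G, MT1H and MT1M (7 genes), with MTF1 and SLC30A1.

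The cells were K562, an established human chronic myelogenous leukaemia line that carries the BCR-ABL fusion, captured on the Fluidigm C1, a microfluidic chip that isolates cells in separate sites, from which full-length cDNA libraries were made. Control libraries from RNA of many cells, made in tubes, were sequenced with them, and the labels do not mark which these are. In the Hoechst run the cells were untreated, at passages 90 to 92, and stained with Hoechst and propidium iodide. In the benzene run and the imatinib run, both at passages 20 to 22, untreated cells carried the dye CellTracker Green, whereas cells given 10 mM benzene for 3 h, or 1 µM imatinib (an inhibitor of the ABL kinase) for 1 h, carried CellTracker Orange. Dye and drug therefore cannot be told apart within a run. Cell lot, passage, stain and sequencing differed together between the Hoechst run and the others, since the study used another lot of K562 for its Hoechst-stained experiment. Dead cells marked by propidium iodide were also sequenced in that experiment, whereas cells marked as dead were left out of the others. The study captured fresh cells and cells fixed with the reversible crosslinker DSP in each run. In its Hoechst-stained experiment fixed cells made up a larger part, and were stored for longer, than in the others. It reports a mild bias of coverage towards the 3′ ends of genes in fixed cells, which appeared to grow with storage time. The labels used here do not say which library is fresh or fixed, nor which held a single cell, so all are described together.

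Counts were matched to 263 of 267 labelled samples, with 50358 to 2043351 reads on genes per library. Libraries in which the 500 most abundant genes took over 70% of the reads were left out, which kept 242: 82 of the Hoechst run, 31 Green and 34 Orange of the benzene run, and 50 Green and 45 Orange of the imatinib run. The 21 libraries left out held 1 metallothionein read in total. Each group was treated as 1 culture split over many libraries, so a group counts as 1 sample, no test was made between groups, and the error given is the spread over libraries or an exact 95% interval (Poisson for reads, Clopper-Pearson for shares) that covers counting error only. Among K562 and erythroid markers, GATA1 summed to between 350 and 514 CPM (counts per 1000000 reads on genes) in the 5 groups, HBG2 to between 1787 and 2938 CPM and PRAME to between 3102 and 3558 CPM, against 1.25 to 6.77 CPM for 3 lymphocyte markers and 0.494 to 21.9 CPM for 3 fibroblast markers. Of 3 epithelial markers, KRT5 was at 0 in all groups, CDH1 stayed at or below 0.512 CPM, and EPCAM reached 34.2 to 49.8 CPM. The part of other cells in the results below was not tested.

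The metallothionein members are near copies of each other, which bears on every count below because only uniquely mapped reads were counted. The coding sequences of the 3 members with the most reads are shown for this reason. They are reference sequences on GRCh37, 5′ to 3′, without the stop codon, and capitals mark the bases of MT1X or MT1G that differ from MT2A or are inserted in the alignment. On GRCh37 the genes lie at chr16:56642496-56643409 (MT2A, plus strand), chr16:56716382-56718108 (MT1X, plus strand) and chr16:56700642-56701977 (MT1G, minus strand), each in 3 exons.
MT2A: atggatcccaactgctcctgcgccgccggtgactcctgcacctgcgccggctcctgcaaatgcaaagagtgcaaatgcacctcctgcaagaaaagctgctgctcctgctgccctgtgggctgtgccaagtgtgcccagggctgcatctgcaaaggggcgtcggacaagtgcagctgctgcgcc
MT1X: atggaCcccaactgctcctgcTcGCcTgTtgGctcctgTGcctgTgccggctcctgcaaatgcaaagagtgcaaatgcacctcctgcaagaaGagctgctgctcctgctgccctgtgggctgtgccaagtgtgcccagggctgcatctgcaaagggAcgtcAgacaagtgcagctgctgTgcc
MT1G: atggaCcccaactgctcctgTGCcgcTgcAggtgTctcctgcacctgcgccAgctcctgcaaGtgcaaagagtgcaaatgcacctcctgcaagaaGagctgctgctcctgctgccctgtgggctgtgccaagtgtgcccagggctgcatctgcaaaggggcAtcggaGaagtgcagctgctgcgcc
MT1X had 14 such bases. MT1G had 12, which include its extra codon, since it has 186 coding bases against 183. Over all 21 pairs of the 7 metallothioneins, coding identity ran from 88.5% (MT1X and MT1F) to 93.5% (MT2A and MT1G), with a median of 91.4%.

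**Figure D1:**
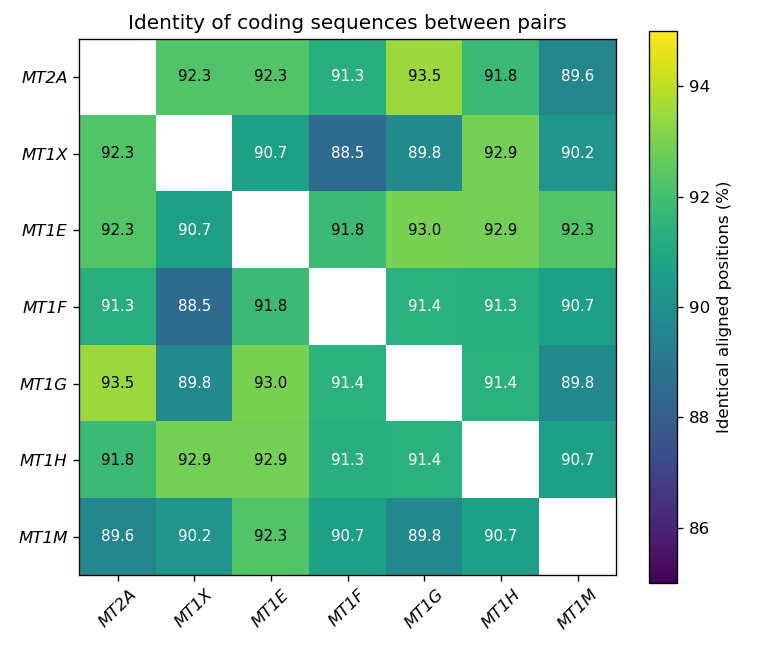
Share of identical aligned coding positions (%) for each pair of the 7 metallothioneins, both axes listing the genes and the colour and printed value giving the identity. All 21 pairs lay between 88.5% and 93.5%.

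How much of each transcript can be told from other genes was counted with windows of 75 and 100 bases, the read lengths of the study. Reads had 100 bases in its Hoechst-stained experiment and 75 bases in the others. No 75-base window of MT2A (327 windows), MT1F, MT1M or SLC30A1 occurred exactly in another annotated gene. Among members with reads, MT1X shared the most: 36.1% of its 330 windows of 75 bases occurred elsewhere, in ENSG00000259827, MT1G and the processed pseudogene MT1XP1, and 22% of those of 100 bases, all in ENSG00000259827. That gene lies on the same strand and shares 165 of the 404 transcript bases of MT1X (40.8%). It had 0 reads in all groups. MT1G shared 6.55% of its 75-base windows with MT1X or MT1XP1 and none of 100 bases, MT1E shared 0.794% of the shorter ones with MT1JP or MT1P3, and MT1H shared 10.8% and 3.36% with MT1HL1. The longest exact run between a pair was 96 bases, between MT1X and MT1G. Counts of MT1X, MT1G and MT1H are therefore uncertain where reads fell in the shared stretches, whereas MT2A reads of full length could not be assigned exactly to another gene. Windows that MT1X and MT1G share with each other or with MT1XP1 occurred at 75 bases only, the read length of the benzene and imatinib runs. ENSG00000259827 overlaps exons of MT1X at the same place in the genome. A read that enters that stretch only in part may also go uncounted. Windows lying wholly inside it therefore do not show at which read length more MT1X reads are lost. The part of this sharing in the ratios of MT1X and MT1G against the Hoechst run was not tested.

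The promoters of 3 members are shown because MTF1, SLC30A1 and the metallothioneins belong to a single regulatory circuit. Each is the 250 bases before the start site from RefSeq (GRCh38.p14), 5′ to 3′ on the strand of the gene, with capitals marking the core of the metal response element, searched as TGCACNC and TGCGCNC on both strands. They lie at chr16:56608334-56608583 for MT2A (plus strand), chr16:56682220-56682469 for MT1X (plus strand) and chr1:211579162-211579411 for SLC30A1 (minus strand).
MT2A promoter: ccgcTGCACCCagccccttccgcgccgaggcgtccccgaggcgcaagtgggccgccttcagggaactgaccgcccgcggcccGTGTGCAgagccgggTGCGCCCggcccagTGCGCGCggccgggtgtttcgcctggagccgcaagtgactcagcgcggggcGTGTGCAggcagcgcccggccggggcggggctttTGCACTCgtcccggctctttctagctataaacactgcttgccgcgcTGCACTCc
MT1X promoter: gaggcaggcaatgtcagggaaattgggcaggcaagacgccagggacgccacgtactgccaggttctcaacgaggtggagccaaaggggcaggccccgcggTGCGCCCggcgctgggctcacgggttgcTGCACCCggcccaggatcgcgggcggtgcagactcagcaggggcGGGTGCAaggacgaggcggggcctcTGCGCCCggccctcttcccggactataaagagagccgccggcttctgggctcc
SLC30A1 promoter: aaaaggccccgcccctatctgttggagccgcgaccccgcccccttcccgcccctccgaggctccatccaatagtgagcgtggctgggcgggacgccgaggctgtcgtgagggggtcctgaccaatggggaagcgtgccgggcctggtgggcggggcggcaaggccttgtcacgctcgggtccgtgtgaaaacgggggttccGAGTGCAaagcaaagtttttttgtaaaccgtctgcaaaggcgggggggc
The MT2A window held 7 matches and the MT1X window 4. MT1H, at 0 reads below, held 8, SLC30A1 held 1 and MTF1 none. Among all 35116 promoters of that length, 24.8% held at least 1 match, 1.58% held 3 or more and 0.12% held 5 or more. RefSeq promoters of MT1E, MT1F, MT1G and MT1M were not in the table used. A match is a run of letters and not a measured binding site.

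Among the metallothioneins, MT2A took most of the reads in each group, and in the Hoechst and benzene runs its level was set by few libraries. In the Hoechst run its level per library went from 0 through a median of 3.59 to 1091 CPM, and the reads summed over the 82 libraries gave 33.4 CPM (95% interval 32.3 to 34.5). The imatinib run Green libraries ranged from 0 to 59.4 CPM with a median of 1.96, and the Orange libraries from 0 to 79.1 CPM with a median of 3.31, giving 9.10 and 10.3 CPM for the summed reads. In the benzene run both medians were 0, the highest libraries were at 95.3 CPM (Green) and 45.8 CPM (Orange), and the sums were 4.33 and 1.98 CPM. All 5 groups overlapped, since each had libraries at 0. On the log2(CPM + 1) scale the mean ± SD over libraries was 2.47 ± 2.54 (n = 82) in the Hoechst run, 0.51 ± 1.55 (n = 31) and 0.53 ± 1.22 (n = 34) in the benzene run Green and Orange libraries, and 1.91 ± 2.03 (n = 50) and 2.29 ± 1.92 (n = 45) in those of the imatinib run. The SD exceeded the mean in 4 of the 5 groups.

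**Figure D2:**
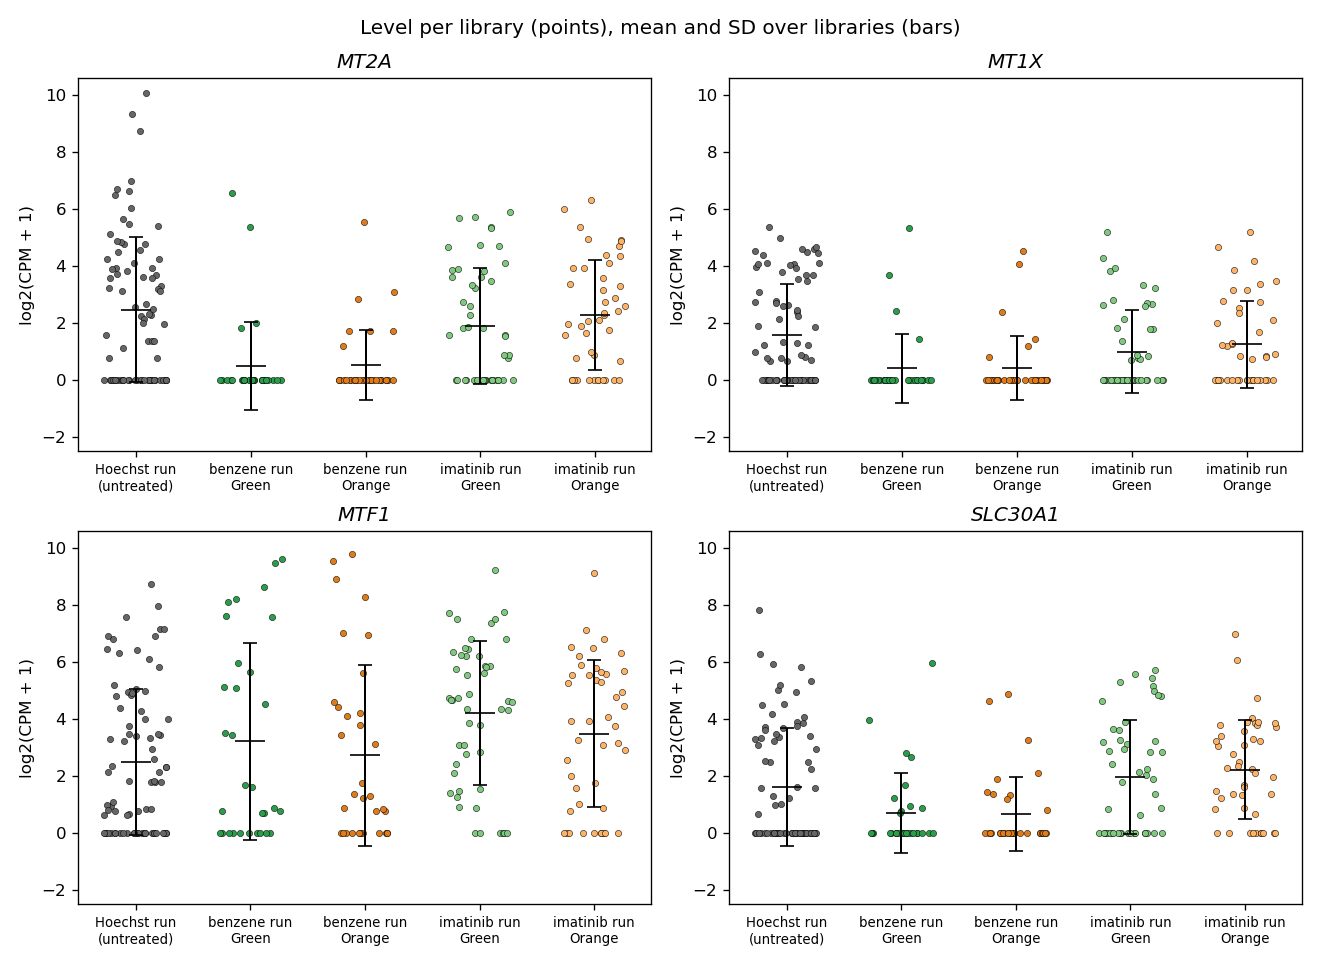
Level of MT2A, MT1X, MTF1 and SLC30A1 in each kept library (points) as log2(CPM + 1) for the 5 groups on the x axis, with bars for the mean ± SD over libraries. Libraries at 0 occur in every panel and group, and the 3 highest MT2A points (435 to 1091 CPM) all belong to the Hoechst run.

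In the Hoechst run 3 libraries carried 56.6% of the MT2A reads. Library A4 had 1091 CPM (897 reads), A20 had 658 CPM (367 reads) and A7 had 435 CPM (706 reads), and the next was A61 at 126 CPM. The numbers of these 3 fall between A1 and A30, as do those of all Hoechst run libraries left out. The labels do not say what the numbers stand for, and a link with fresh or fixed cells was not tested. Without these 3 libraries the sum fell from 33.4 to 14.9 CPM, against 6.43 and 7.05 CPM in the imatinib run Green and Orange groups treated alike. MT2A exceeded 100 CPM in 5 libraries, all of the Hoechst run. In the benzene run the reads were carried by even fewer libraries: A1 alone held 62.8% of the Green reads (115 reads) and A11 held 64.8% of the Orange reads (59 reads). Leaving them out gave 1.66 and 0.715 CPM. The imatinib run was more even, with 33.3% (Green) and 35.8% (Orange) of the reads in the top 3 libraries. Over all genes at 5 to 50 CPM the median share in the top 3 libraries was 42% in the Hoechst run, 38.3% and 41.8% in the imatinib run, and 73.5% and 68.9% in the benzene run Green and Orange groups. MT2A was thus more concentrated than the median gene in the Hoechst run and less so in the imatinib run.

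**Figure D3:**
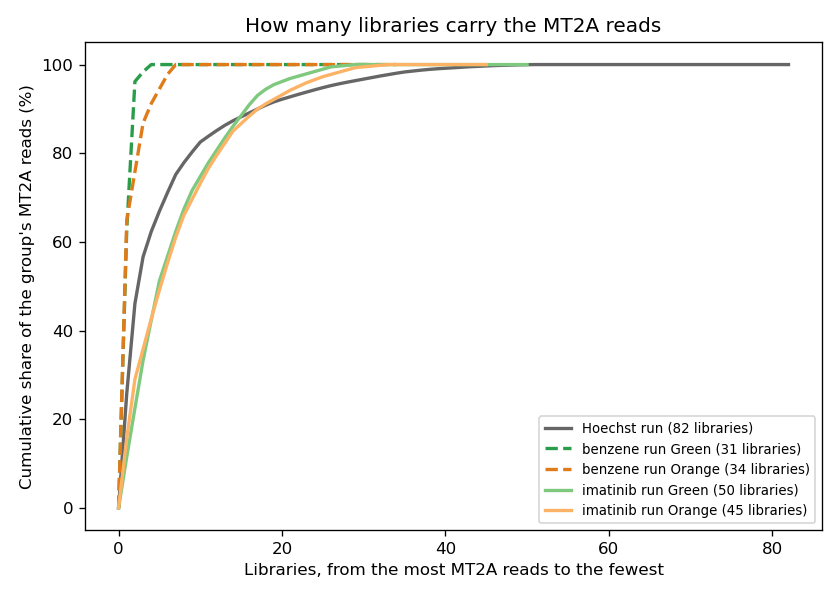
Cumulative share of the MT2A reads of each group (y axis, %) as libraries are added from the most reads to the fewest (x axis, number of libraries). The top 3 libraries reach 56.6% in the Hoechst run, 98.4% and 86.8% in the benzene run Green and Orange groups, and 33.3% and 35.8% in the imatinib run.

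MT2A was detected, by more than 2 reads, in 46 of 82 Hoechst run libraries (56.1%, 44.7 to 67%), in 26 of 50 imatinib run Green libraries (52%, 37.4 to 66.3%) and in 29 of 45 Orange libraries (64.4%, 48.8 to 78.1%). The benzene run had 4 of 31 (12.9%, 3.63 to 29.8%) and 6 of 34 (17.6%, 6.76 to 34.5%). The intervals of both benzene run groups lay below those of the other 3 groups, and those 3 overlapped. Detection was lower in the benzene run for genes in general: over all genes at 5 CPM or more the median share was 54.8% and 55.9% in its Green and Orange libraries, against 65.9% in the Hoechst run and 78% and 75.6% in the imatinib run. The benzene run stayed lowest at equal depth, while the Hoechst and imatinib Orange groups changed places: after each library was thinned to 500000 reads, which dropped 2 Hoechst run libraries below that number, the shares were 43.8%, 32% and 37.8% in the Hoechst, imatinib Green and imatinib Orange libraries against 6.45% and 8.82% in the benzene run. Benzene run libraries also had fewer genes with reads, with medians of 5963 (Green) and 5860 (Orange) against 7410 in the Hoechst run and 8082 and 7797 in the imatinib run. The part of that gap in the metallothionein result was not tested.

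**Figure D4:**
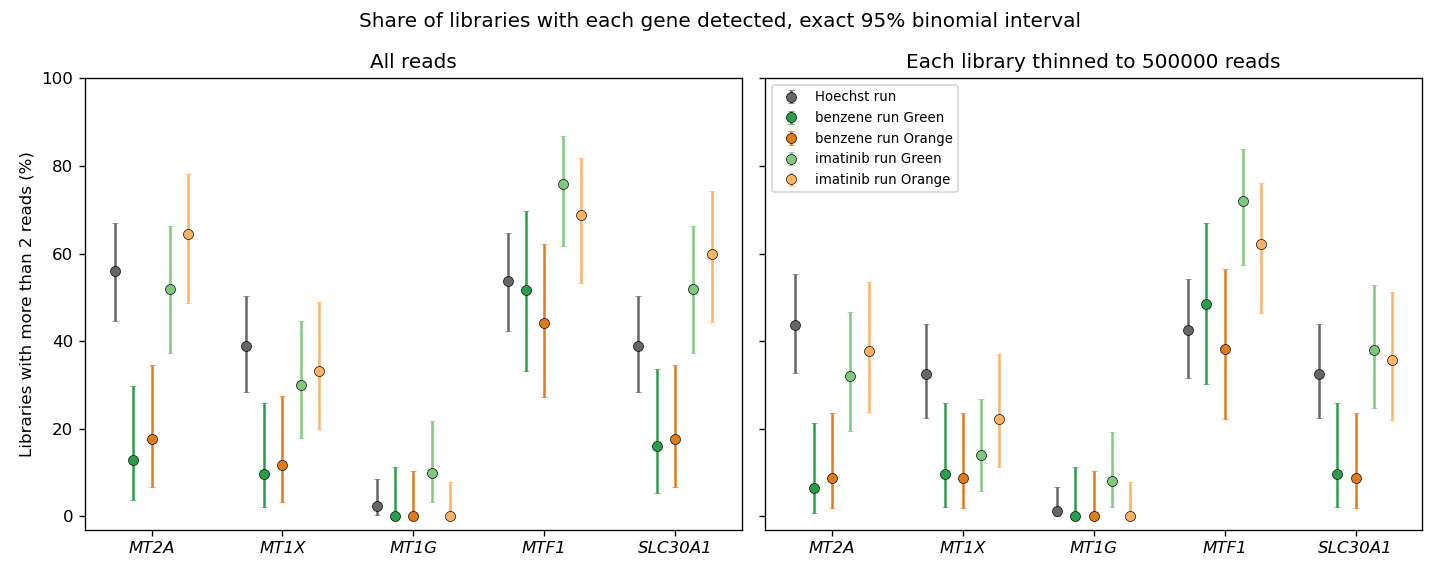
Share of libraries (%) with more than 2 reads of each gene on the x axis, with exact 95% binomial intervals, for all reads (left) and for libraries thinned to 500000 reads (right), 1 colour per group. In both panels MT2A, MT1X and SLC30A1 have their lowest shares in the benzene run groups, while for MTF1 the benzene run Green share lies near or above that of the Hoechst run.

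A set of 12 kept libraries stood apart with over 10000 genes each (5 of the Hoechst, 3 of the benzene and 4 of the imatinib run). They were the last-numbered counted libraries of their runs: A92 to A96 (Hoechst), A92 to A94 (benzene) and A93 to A96 (imatinib). The labels do not mark the control libraries of many cells, and whether these 12 are such controls was not tested. The spreads among them may therefore not be spreads over single cells. MT2A had reads in all 12 and lay within 8.37 to 18.1 CPM in the Hoechst run, 1.32 to 2.58 CPM in the benzene run and 10.1 to 19.5 CPM in the imatinib run. The SD of log2(CPM + 1) among them was 0.34 to 0.39 within a run, against 1.39 to 2.60 among the other libraries of the same run. MTF1 had an SD of 0.11 to 0.46 among them and 2.56 to 3.36 among the others, whereas SLC30A1 in the benzene run had 1.30 and 1.29. In these 12 libraries MT2A was thus lower in each of the 3 benzene run libraries than in each of the other 9, and none was at 0. Without these 12 libraries the MT2A sums were 34.5, 3.16 and 9.48 CPM in the Hoechst, benzene and imatinib runs, with detection in 41 of 77, 8 of 62 and 51 of 91 libraries.

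MT1X was the second metallothionein in reads, with a lower sum and a lower highest library than MT2A in each group. Its sums were 5.89 CPM in the Hoechst run, 1.96 and 1.33 CPM in the benzene run Green and Orange groups, and 2.93 and 3.55 CPM in the imatinib run. The highest library was at 41 CPM, in the Hoechst run (A81), and the medians lay between 0 and 0.745 CPM. The top 3 libraries held 19.9% of the MT1X reads in the Hoechst run, against 56.6% for MT2A. In the imatinib run Green and Orange groups they held 44.3% and 43.8%, against 33.3% and 35.8% for MT2A. In those of the benzene run they held 97.6% and 90.2%, against 98.4% and 86.8%. MT1X was detected in 32 of 82 Hoechst run libraries (39%), 3 of 31 and 4 of 34 in the benzene run, and 15 of 50 and 15 of 45 in the imatinib run. Per kilobase of full transcript length, MT2A summed to 83.3 and MT1X to 14.6 CPM per kb in the Hoechst run, and to 22.7 and 7.26 in the imatinib run Green libraries. The 2 genes cannot simply be set side by side on this scale. Another gene shares 40.8% of the MT1X transcript bases, and reads there may go uncounted, whereas MT2A had no shared 75-base window.

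MT1G had a pattern of its own, with reads in the imatinib run Green libraries and almost none elsewhere. Of its 140 reads, 123 came from those 50 libraries, in which 5 passed the detection limit: A57 had 26.9 CPM (43 reads), A69 28.2 CPM (33 reads), A59 15.1 CPM (18 reads), A38 14.1 CPM (17 reads) and A33 4.52 CPM (7 reads). The imatinib run Orange group had 1 read and the benzene run none, which over the Green and Orange sums allows up to 0.071 and 0.0652 CPM (3 counts). In the Hoechst run 16 reads came from A20 (11 reads) and A33 (5 reads). MT2A was at 0 in A57 and A59 and at 51.5 CPM in A38, so high MT1G did not go with a fixed level of MT2A. The sum of MT1G was 1.95 CPM in the imatinib run Green and 0.0176 CPM in the Orange libraries, under the minimum of 5 CPM set for comparisons.

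MT1E and MT1F were seen in a few libraries only, 13 and 19 reads in the Hoechst run, none in the benzene run, 1 and 4 reads in the imatinib run Green libraries, and 0 and 1 read in the Orange libraries. MT1E was detected in A20 (10.8 CPM), A46 (2.65 CPM) and A88 (2.71 CPM) of the Hoechst run, and MT1F in A20 (23.3 CPM) and A74 (3.08 CPM). A20 was thereby the only kept library with 5 metallothioneins detected, since it also had MT2A at 658, MT1X at 10.8 and MT1G at 19.7 CPM. It had 557515 reads on genes, fewer than the median of its run (1231668), and 7399 genes. MT1H and MT1M had 0 reads in all 242 kept libraries, which allows up to 0.00961 CPM over the summed reads. MT2A made up 84% of the metallothionein reads in the Hoechst run and 59.9% to 74.3% in the other 4 groups, with MT1X at 14.8% and 20.9% to 40.1%.

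MTF1, the metal-sensing transcription factor, differed from its target genes in the order of the groups by summed reads. Its sums were highest in the benzene run, at 98.1 CPM (Green) and 92.3 CPM (Orange), followed by the imatinib run at 59.4 and 41.3 CPM and the Hoechst run at 28.5 CPM. The medians gave another order: 2.09 and 1.41 CPM in the benzene run, 24.3 and 14.2 CPM in the imatinib run and 2.54 CPM in the Hoechst run. Benzene run libraries ranged from 0 to 794 CPM (Green) and 884 CPM (Orange), and the top 3 held 62.6% and 76.4% of the reads. Detection was 44 of 82, 16 of 31, 15 of 34, 38 of 50 and 31 of 45 libraries in the Hoechst, benzene Green, benzene Orange, imatinib Green and imatinib Orange groups. Per kilobase MTF1 was at 3.59 CPM per kb in the Hoechst run, below MT2A at 83.3, while in the benzene run Green libraries it was at 12.4 and MT2A at 10.8. Both of these Green values rested on few libraries. Without the top 3 of each gene, the sums before division by length were 40.7 CPM for MTF1 and 0.0785 CPM for MT2A.

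SLC30A1, the zinc exporter, was ordered like MT2A in being lowest in the benzene run. Its sums were 9.69 CPM in the Hoechst run, 3.17 and 2.30 CPM in the benzene run Green and Orange libraries, and 8.88 and 9.02 CPM in the imatinib run. Its highest libraries were A36 of the Hoechst run at 228 CPM and A58 of the imatinib run Orange group at 127 CPM. It was detected in 32 of 82, 5 of 31, 6 of 34, 26 of 50 and 27 of 45 libraries in the same order of groups. The interval of the benzene run Green share (5.45 to 33.7%) lay below that of both imatinib run groups and overlapped that of the Hoechst run (28.4 to 50.4%).

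The benzene comparison asked which transcripts differed between Orange (benzene) and Green (untreated) cells of a single run. The 7 metallothioneins together summed to 3.30 CPM in the Orange and 6.29 CPM in the Green libraries, a log2 ratio of -0.76 on the log2(CPM + 1) scale. That value rested on library A1 of the Green group, without which it was -0.12. MT2A went from -0.84 to 0.16 without A1, MT1X from -0.35 to 0.46 without A5, and SLC30A1 from -0.34 to 0.69 without A69, each a Green library. For MTF1 the ratio was -0.09, and it was -0.61 without A61 (Orange) and 0.33 without A69 (Green). Taking the mean of log2 values over libraries in place of summed reads gave 0.02 for MT2A and 0.00 for the total. Only MTF1 reached 5 CPM in either sum and it did not differ by 2-fold, where 17% of the 10889 genes at that level were higher by 2-fold or more in the Orange group and 15.7% were lower.

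The imatinib comparison gave closer values. The metallothionein total was 13.9 CPM in the Orange and 14.1 CPM in the Green libraries, a log2 ratio of -0.01 that stayed within -0.17 and 0.09 as single libraries were left out. MT2A was at 0.17 (-0.03 without A74 of the Orange group), MT1X at 0.21 and SLC30A1 at 0.02 (-0.40 without A58 of the Orange group). MTF1 was lower in Orange by a log2 ratio of -0.51, which became -1.02 without A49 of the Orange group and -0.22 without A24 of the Green group. Of the 3 members at 5 CPM or more, none differed by 2-fold, with 5.18% of 10563 genes higher and 5.66% lower by that rule. The sampling interval of the Orange over Green ratio of the total was 0.898 to 1.09, from counting error alone.

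Untreated cells of different runs differed more. Hoechst run libraries had a higher metallothionein total than benzene run Green libraries, 39.8 against 6.29 CPM, with a log2 ratio of 2.48 (2.15 to 3.12 as single libraries were left out). MT2A was at 2.69, SLC30A1 at 1.36 and MT1X at 1.22, whereas MTF1 was at -1.75. All 4 members at 5 CPM or more passed 2-fold in the summed reads, 3 higher and 1 lower. The 3 higher ones reached 5 CPM in the Hoechst run sum only. In the benzene run Green sums MT2A was at 4.33, MT1X at 1.96 and SLC30A1 at 3.17 CPM. The limit thus fixed their direction, though not the 2-fold size. By the mean of log2 values over libraries SLC30A1 (0.91) and MTF1 (-0.73) did not pass 2-fold. The medians of MTF1 were 2.54 CPM in the Hoechst and 2.09 CPM in the benzene run Green libraries. Of 11514 genes 27.9% were higher and 14.9% lower in the same comparison, with a median log2 ratio of 0.24. Without A1 of the benzene run MT2A was at 3.70, without A5 MT1X was at 2.03, and without A69 SLC30A1 was at 2.38. SLC30A1 fell just under 2-fold (0.98) without A36 of the Hoechst run, and MT1X was at 0.80 when libraries were kept only up to a share of 60% in the top 500 genes.

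Against the imatinib run Green libraries, the total of the Hoechst run was higher at 1.44, with MT2A at 1.77, MT1X at 0.81, SLC30A1 at 0.11 and MTF1 at -1.03. One of the 4 members at 5 CPM was higher by 2-fold (MT2A) and one lower (MTF1), where 23% of 11390 genes were higher and 13.6% lower and the median was 0.17. The means of log2 values over libraries differed by 0.53 for the total and 0.56 for MT2A, under 2-fold. MTF1 was at -0.74 without A24 of the imatinib run Green group. The benzene run Green libraries lay below those of the imatinib run for the total (-1.05, or -0.94 without A38 of the imatinib run) and for SLC30A1 (-1.24), with MT2A at -0.92 and MTF1 at 0.71, while the mean of log2(CPM + 1) over libraries was lower for MTF1 in the benzene run, 3.22 against 4.22. Of the 3 members at 5 CPM, SLC30A1 was lower by 2-fold and none was higher. SLC30A1 and MT2A reached 5 CPM in the imatinib run sum only, so the limit fixed their direction. Without A1 of the benzene run MT2A (-1.93) passed 2-fold as well, and the total was at -1.69. Without A69 SLC30A1 was at -2.27. Here 16.7% of 10899 genes were higher and 19.7% lower.

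MT2A and MT1X were weakly correlated over Hoechst run libraries, and less or not in the other groups. Spearman's correlation of their CPM was 0.36 over the 82 Hoechst run libraries and 0.09, 0.24, 0.10 and 0.04 in the benzene Green, benzene Orange, imatinib Green and imatinib Orange groups (n = 31, 34, 50 and 45). Pearson's correlation of log2(CPM + 1) gave 0.30, -0.07, -0.05, 0.09 and -0.01 in the same order. Thinning to 500000 reads gave 0.30, -0.13, 0.13, 0.20 and 0.02. In the Hoechst run 23 libraries had both detected, which was 50% of the 46 with MT2A and 71.9% of the 32 with MT1X. Independent detection would give 18. At least 1 of the 7 metallothioneins was detected in 56 Hoechst run libraries, and 2 or more in 24. In the benzene run 2 or more were detected in 1 of 65 libraries. There 0 Green and 1 Orange libraries had both MT2A and MT1X, where independent detection would give 0.387 and 0.706. These counts were not tested. MT2A did not follow MTF1, with correlations of -0.06 to 0.12 in the 5 groups. With SLC30A1, MT2A was at 0.24, 0.35 and 0.28 in the Hoechst and benzene run groups, -0.23 in the imatinib Green and 0.16 in the Orange group, and the benzene Green value changed to -0.14 after thinning. These correlations are over libraries of 1 culture each that also share depth and capture, MT2A being correlated with the number of genes per library at 0.09 to 0.52.

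**Figure D5:**
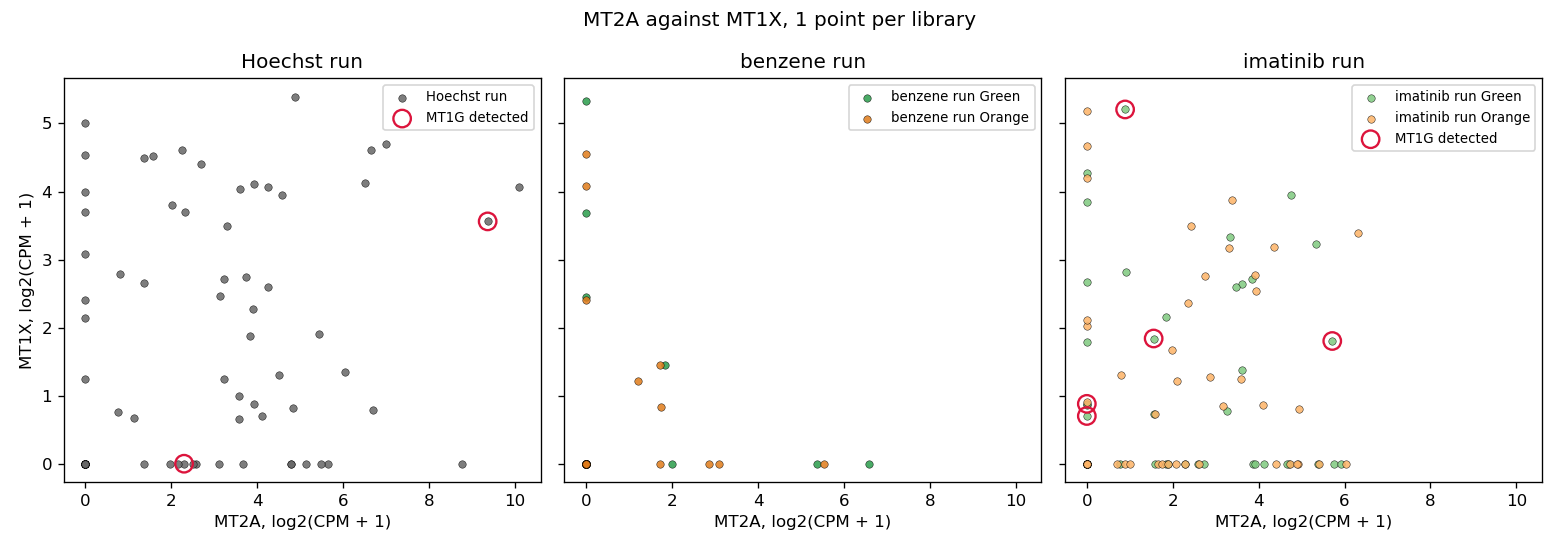
MT2A (x axis) against MT1X (y axis) in each kept library, both as log2(CPM + 1), in 1 panel per run, with red rings around the libraries in which MT1G was detected. Many libraries lie on an axis, with reads of only 1 of these genes, and the ringed libraries are spread over both axes.

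No candidate gene followed MT2A closely in all 5 groups. Candidates were the 4697 genes with more than 2 reads in 50% or more of every group's libraries. The highest of the lowest correlations were those of EAPP (0.19), RMDN1 (0.16), METTL9 (0.15), HNRNPA2B1 (0.15) and NEMP1 (0.14). For the metallothionein total they were RPS29 (0.19), KLHL12 (0.16), SNRPD3 (0.15), SREK1IP1 (0.15) and HNRNPA3 (0.15). The named genes were picked as the highest of the 4697 in these same data, and their values are weak. Over all candidates the median of the lowest correlations was -0.11 for MT2A and -0.13 for the total.

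Of 12 further metallothionein genes and pseudogenes, 11 were in the table, and most had no reads, MT1A, MT1B, MT3 and MT4 included. MT1L had 1 read and MT1P1 had 23, all in the Hoechst run. The most reads were on MT1XP1, a processed pseudogene at chr1:16567708-16567893 (GRCh37, minus strand) that resembles MT1X, with 593 reads in the imatinib run Orange and 103 in the Green libraries. Its sums were 10.5 and 1.63 CPM, a log2 ratio of 2.12, and it was detected in 15 of 45 Orange against 5 of 50 Green libraries. The highest Orange library (A80) held 23.3% of the Orange reads, and the sum was 8.19 CPM without it. In 7 of the 15 Orange libraries with MT1XP1 there was no MT1X read, and the correlation with MT1X over those 45 libraries was -0.10. The Hoechst run had 1.76 CPM and the benzene run 0.426 (Green) and 0.0217 CPM (Orange). As MT1XP1 and MT1X share 75-base windows, the assignment of reads between them is uncertain.

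Among the other zinc transporters, 9 further exporters and vesicle importers of the SLC30 family gave no gene past 2-fold in either Orange against Green comparison, with 5 at 5 CPM or more in each. The SLC39 importers, which bring zinc into the cytosol, gave 12 of 14 at that level in the benzene run, 4 higher and 1 lower in the Orange group: SLC39A5 went from 0 to 8.80 CPM, SLC39A13 from 4.73 to 25.4, SLC39A6 from 7.78 to 27.2 and SLC39A1 from 7.64 to 21.8, whereas SLC39A10 went from 63.7 to 26.8. Their median log2 ratio was 0.34, against 0.04 over all genes tested. Of these, SLC39A5 and SLC39A13 rested on a single library, which held 99.8% and 93.8% of their Orange reads and without which the log2 ratios were 0.03 and, in the other direction, -1.12. SLC39A6, SLC39A1 and SLC39A10 were detected in 14 of 34 Orange, 13 of 34 Orange and 24 of 31 Green libraries, and without the highest library of the group with more reads they were at 1.06, 1.11 and -0.89, the last under 2-fold. In the imatinib run SLC39A13 (13.7 to 3.30 CPM) and SLC39A6 (45.5 to 20.8 CPM) were lower in the Orange group, of 11 importers at that level, and both were under 2-fold without the highest Green library (-0.86 and -0.90).

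Of 9 genes for copper and other metals, 8 reached 5 CPM in the benzene run, with the divalent metal transporter SLC11A2 (26.5 to 83.4 CPM) and the copper pump ATP7A (17.3 to 39.4 CPM) higher in the Orange group. The iron exporter SLC40A1 (102 to 32.1 CPM) and the copper chaperone genes CCS (80.7 to 26.2 CPM) and ATOX1 (142 to 62.4 CPM) were lower, as was the pump ATP7B (53.9 to 23 CPM), of whose Green reads 1 library held 86.4% and whose log2 ratio turned to 1.49 without it. Without the highest library of the group with more reads, SLC11A2 (0.88), ATP7A (0.87), SLC40A1 (-0.88) and ATOX1 (-0.86) were under 2-fold, and CCS was at -1.01. In the imatinib run only CCS passed, from 11.7 to 24.6 CPM, with a log2 ratio of 0.74 without its highest Orange library. Of 10 genes that respond to cadmium or oxidative stress, none of the 7 at 5 CPM passed in the benzene run, and in the imatinib run the cystine transporter SLC7A11 was higher (14.1 to 37.9 CPM) and GCLC, for glutathione synthesis, was lower (18.8 to 7.20 CPM), both still past 2-fold without the highest library (1.15 and -1.08). These counts stand beside the shares of all genes given above for the same comparisons, and no list was tested.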

How the data were processed

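Whole-number read counts per Ensembl gene were deposited by the authors for C1 single-cell libraries of K562 cells. Per the labels and the study's methods, adapters were trimmed, reads were aligned with HISAT2 to GRCh37 with ERCC spike-ins, duplicates were marked with Picard 1.92, and uniquely mapped reads were counted with featureCounts (Subread 1.5.0). Whether marked duplicates entered the counts is not given in the sources used here. A deposited CPM table of the same libraries was not used.

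Groups came from titles, stain and treatment labels. A total of 4 count columns matched no title and 4 titles had no column, and none of these were used. Gene symbols came from a later GENCODE annotation on GRCh37, which named 55665 of 63677 identifiers. CPM was taken per 1000000 reads on genes without the 92 ERCC rows. A library was dropped when its 500 most abundant genes took over 70% of its reads. Group levels are reads summed over kept libraries, and ratios carry a pseudocount of 1 CPM. Genes with 5 CPM in either sum were compared with a rule of 2-fold, without a test, because each group is 1 culture. A gene at that level in 1 sum only entered through the group where it was higher. Detection means more than 2 reads. Intervals are exact at 95%. Alternatives were other library limits, pseudocounts, read thresholds, thinning to 500000 reads, TMM factors (edgeR 4.0.16, R 4.3.3), means of log2 values, and leaving out single libraries. Calculations used Python 3.11.15, pandas 2.3.3 and scipy 1.17.1 and were tested on simulated data. The named genes are the 9 members, listed pathway genes past 2-fold within a run, and the 5 genes most like MT2A or the total. The members and lists were chosen with earlier results of these data known.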

Additional observations from a re-analysis of the deposited data

How the results depend on the processing

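Of 612 alternative values for 114 results, 34 moved by more than the spread over libraries and 2 past the 2-fold rule turned direction. In the benzene run SLC39A13 went to -1.12 and ATP7B to 1.49 without their highest library, an alternative chosen after seeing the data. The spread over libraries is a wide measure for ratios of sums, so these counts do not show that the values are stable. For example, MT2A in the benzene run went from -0.84 to 0.16 without A1, against SDs of 1.22 (Orange) and 1.55 (Green). The share of libraries with MT2A detected was 42.7% in the Hoechst run, 34% in the imatinib run Green and 35.6% in the imatinib run Orange libraries with at least 10 reads required, and 43.8%, 32% and 37.8% after thinning to 500000 reads, by construction a stricter limit in each case. As single libraries were left out, the log2 ratio of the metallothionein total ranged from -1.24 to -0.12 (benzene run Orange against Green), -0.17 to 0.09 (imatinib run), 2.15 to 3.12 (Hoechst against benzene run Green), 1.10 to 1.54 (Hoechst against imatinib run Green) and -1.69 to -0.94 (benzene against imatinib run Green). With TMM factors the Hoechst run totals stood at 2.23 and 1.30 against the benzene and imatinib run Green libraries. MTF1 in the Hoechst against the imatinib run Green libraries was -0.98 with ERCC reads in the total. A pseudocount of 10 CPM brought MT1X and SLC30A1 of the Hoechst against the benzene run to 0.41 and 0.58, under 2-fold. The sum of MT2A without its 3 highest libraries, likewise chosen after seeing the data, was 14.9, 0.0785, 0.287, 6.43 and 7.05 CPM in the Hoechst, benzene Green, benzene Orange, imatinib Green and imatinib Orange groups. No paired analysis was possible because the result comes from no test. Low counts limit MT1E, MT1F, MT1G, MT1H and MT1M.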
